A study of Mus musculus with 42 samples.

Results

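The genes of the cytosolic and the mitochondrial ribosomal proteins were followed in bulk RNA sequencing of mouse bone marrow-derived macrophages. Members were taken by name, as genes whose symbols begin with Rpl, Rps, Mrpl or Mrps followed by a number. Of 168 such genes in the table, 163 passed the count minimum and were tested, among 17648 genes tested and 54532 in the table. The cytosolic ribosome was represented by 86 genes, 52 of the large and 34 of the small subunit. The mitochondrial ribosome was represented by 77 genes, 48 of the large and 29 of the small subunit. Ribosome and subunit were assigned by symbol alone, and some members have another place or role, as given below. The 5 genes under the minimum were Rpl3l with 38 counts over all libraries, Rpl13a-ps1 with 3, and Mrpl53, Rpl10l and Rpl36-ps4 with 0.

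The cells came from male wild-type C57BL/6 mice of 10 to 12 weeks, called young, and of 18 to 20 months, called aged. They were grown from whole marrow in macrophage colony-stimulating factor, and the labels state no sort. The control at each age was 24 h in 0.1% normal saline with harvest 3 days later, and no other control time exists in the labels. β-glucan is a sugar polymer of fungal cell walls that Dectin-1 binds. Cells met it at 5 µg/mL and were harvested after 4 h or 24 h of exposure, or on day 3 after a 24 h exposure. Lipopolysaccharide (LPS), which comes from bacteria and signals through Toll-like receptor 4, was added at 100 ng/mL for the last 4 h, either to naive cells or to cells that had met β-glucan 3 days before, called primed here. For the naive LPS cells the labels give no saline exposure and no harvest day. In naive LPS versus control and in primed versus naive LPS, treatment cannot be told apart from a difference in these. The young control and young LPS groups held 6 libraries each, and the other 10 groups held 3 each, all called biological replicates in the labels, which do not say how many mice they came from. If cultures shared a mouse, p-values would measure the spread between cultures only.

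Ribosomes translate mRNA into protein. The cytosolic ribosome is built in the nucleolus from ribosomal RNA and proteins that are made in roughly equal numbers, and most of its mRNAs begin with a run of pyrimidines (the 5′ TOP motif) through which mTOR controls their translation. The mitochondrial ribosome has proteins of its own, which are encoded in the nucleus and imported, and it makes a small set of respiratory chain subunits. Both supply the protein synthesis and the respiration on which an activated macrophage draws.

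Total counts ran from 39850835 to 67347866 per library. Summed macrophage markers (Csf1r, Adgre1, Cd68 and others) reached 23100 to 39200 CPM (counts scaled to a fixed library total), while neutrophil, B cell, T and NK cell, erythroid and mast cell markers stayed at or under 10.2 CPM per list. The 5 dendritic cell markers summed to 0.309 to 3.83 CPM in libraries without LPS and 7.68 to 14.3 CPM with LPS, of which Xcr1 held 5.86 to 11.8 with LPS, while Flt3 and Siglech stayed under 0.3 CPM in every library. The 6 stromal markers, led by Col1a1, Col1a2 and Sparc, summed to 23.1 to 45.8 CPM in young replicates 1 to 3, 60.8 to 116 in young replicates 4 to 6 and 45.2 to 152 in aged libraries. The part of either list in the LPS and age values was not tested. The labels do not explain replicates 4 to 6 of the young control and LPS groups, which differed from replicates 1 to 3 in 17.4% of all genes tested. Among the members, 29 cytosolic genes were higher and 0 lower in replicates 4 to 6, and 11 mitochondrial genes were higher and 2 lower, so these libraries had their own term in the model. A call below is an adjusted p under 0.05 in edgeR's quasi-likelihood test with Benjamini-Hochberg adjustment over all 17648 genes, and log2 fold changes carry their standard error (SE). In bulk RNA, fewer cells of a type and less RNA per cell cannot be told apart.

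Per kilobase of gene length, the cytosolic members lay far above the mitochondrial ones in young controls. The median level was 91.5 CPM per kb over the 86 cytosolic genes and 7.42 CPM per kb over the 77 mitochondrial genes. Rps3a1 was highest with 425 ± 20 CPM per kb (SD, n = 6), followed by Rps15 with 320 ± 44 and Rpl4 with 292 ± 12. At the low end stood the processed copy Rpl9-ps1 with 0, Rpl39l, a paralog of Rpl39 known from male germ cells, with 0.208 ± 0.24, and Rpl36al with 0.387 ± 0.18 CPM per kb. Of the summed counts of Rpl36al and its pseudogene copy, 44.4% fell to the copy, so its level is uncertain. Mitochondrial levels spanned a narrower range. Mrpl52 stood at 35.5 ± 11, Mrps21 at 30.1 ± 5.4 and Mrpl34 at 28.1 ± 8.5 CPM per kb, against 1.47 ± 0.085 for Mrps35, 1.82 ± 0.23 for Mrpl47 and 2.20 ± 0.11 for Mrps30. The length is the one deposited with the counts, and a long one lowers the value, such as 8631 bases for Mrps35 against 739 for Mrps21.

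A start with C followed by at least 4 pyrimidines, the letters of a 5′ TOP start, was annotated for 13 of the 61 cytosolic members with an entry in the RefSeq promoter table (21.3%), 0 of 68 mitochondrial members and 3.01% of all 27025 genes in that table. A run that begins beside the annotated start was not counted. The windows below hold the 20 bases before and the first 10 bases from the annotated start, in GRCm38.p6 and read 5′ to 3′ on the gene's strand. The capitals mark the pyrimidine run at the start. They show Rps6, Rps18, Rpl28 and Rpl38 as cytosolic examples, at chr4:86857358-86857387 (minus), chr17:33955656-33955685 (minus), chr7:4792945-4792974 (plus) and chr11:114668560-114668589 (plus). Mrpl52, Mrpl39, Mrpl41 and Mrpl49 are the mitochondrial members with the largest LPS changes in either direction at both ages, at chr14:54426889-54426918 (plus), chr16:84735235-84735264 (minus), chr2:24975089-24975118 (minus) and chr19:6057746-6057775 (minus).
Rps6: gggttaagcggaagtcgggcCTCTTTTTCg
Rps18: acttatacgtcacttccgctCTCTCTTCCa
Rpl28: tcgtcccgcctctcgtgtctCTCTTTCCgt
Rpl38: ccggaagcggaagcctcgttCTTTCCCCgt
Mrpl52: gtggctgccggggccacgcccacttccggt
Mrpl39: acgagaaggaccgggacgccgagctacctt
Mrpl41: aggctgggcattgggcgccctggtgaccag
Mrpl49: cggctgcgcgcgcatatgacactcagttga

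Over the 250 bases before and 50 bases after the start, searched on both strands, the ETS-type letters CCGGAAG were found in 39.3% of the cytosolic and 36.8% of the mitochondrial members against 9.93% of all genes. TGCGCA, letters found in NRF-1 sites, were found in 19.7% and 30.9% against 8.79%. The YY1-type letters AAGATGG were found in 16.4% and 19.1% against 7.28%. TCTCGCG was found in 23.0% of the cytosolic and 5.88% of the mitochondrial members against 2.92% of all genes. The E-box CACGTG, the letters bound by Myc, was near the share of all genes, with 9.84%, 7.35% and 8.09%, and TATAAA was found in 9.84% and 7.35% against 15.7%. A match of letters is a description of the window and not a bound site. Cytosolic members with and without the pyrimidine start had similar median log2 fold changes in young LPS, 0.37 over 13 genes and 0.32 over 48, with 10 and 34 of them called higher. In aged LPS the medians were 0.29 and 0.28, with 5 of 13 and 25 of 48 called higher. The 48 can include members whose pyrimidine run lies beside the annotated start. The comparison therefore cannot show whether the motif makes a difference.

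The share of all counts held by both ribosomes was lower in every LPS library than in every library without LPS. The cytosolic genes took 1.65 to 2.09% of counts in the 27 libraries without LPS and 1.22 to 1.5% in the 15 with LPS. The mitochondrial genes took 0.155 to 0.199% and 0.101 to 0.126%. The ratio of cytosolic to mitochondrial counts, which needs no scaling between libraries, ran from 9.83 to 11.1 without LPS and from 11.1 to 12.8 with LPS, so the cytosolic genes lost a smaller part of their share. Scaling by trimmed means (TMM), which sets the bulk of genes equal between libraries, gave factors of 1.132 to 1.278 without LPS and 0.667 to 0.777 with LPS. On that scale the order turned, and the cytosolic genes stood for 1.36 to 1.7% of scaled counts without LPS and 1.65 to 2.1% with LPS.

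**Figure D1:**
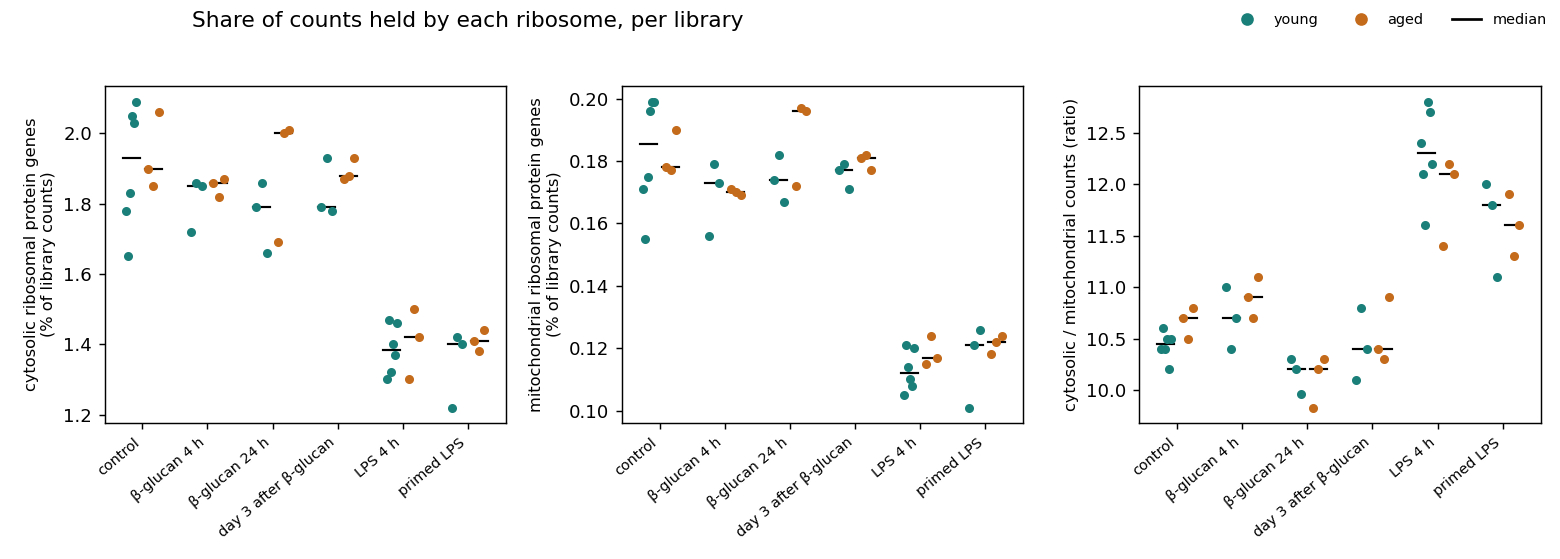
Share of library counts (%) held by the cytosolic and the mitochondrial ribosomal protein genes, and their ratio, in each of the 42 libraries by treatment, without TMM scaling. Points are libraries and lines are medians. Both shares are lower in the LPS and primed LPS groups, at 1.22 to 1.5% and 0.101 to 0.126%, and the ratio there is 11.1 to 12.8.

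The direction of the LPS change of the cytosolic family therefore depended on the scaling. A change of scaling moves all genes of a comparison by nearly the same amount. The place of the family relative to other genes could therefore hardly change with it, and the 3 scalings are no test of that place. In young cells the median log2 fold change of the 86 cytosolic members was 0.34 with TMM, 0.38 with DESeq2's size factors (RLE) and -0.47 with total counts only. The median of all genes was -0.10, -0.05 and -0.90 under the same scalings. The cytosolic median was thus 0.43 to 0.44 above that of all genes, and 83 of 86 members lay above it, under each of the 3 scalings. In aged cells the cytosolic median was 0.29, 0.33 and -0.45, which is 0.37 above the median of all genes, with 80 of 86 members above it. With TMM and no count filter, the distance was 0.33 in young cells, with 80 of 86 members above the median of all genes. In aged cells it was 0.28, with 78 of 86 above. The mitochondrial median was 0.12 above that of all genes at both ages, with 43 of 77 members above it in young and 46 of 77 in aged cells. Whether the RNA content of a cell differed after LPS was not measured, and the values below are on the TMM scale.

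**Figure D2:**
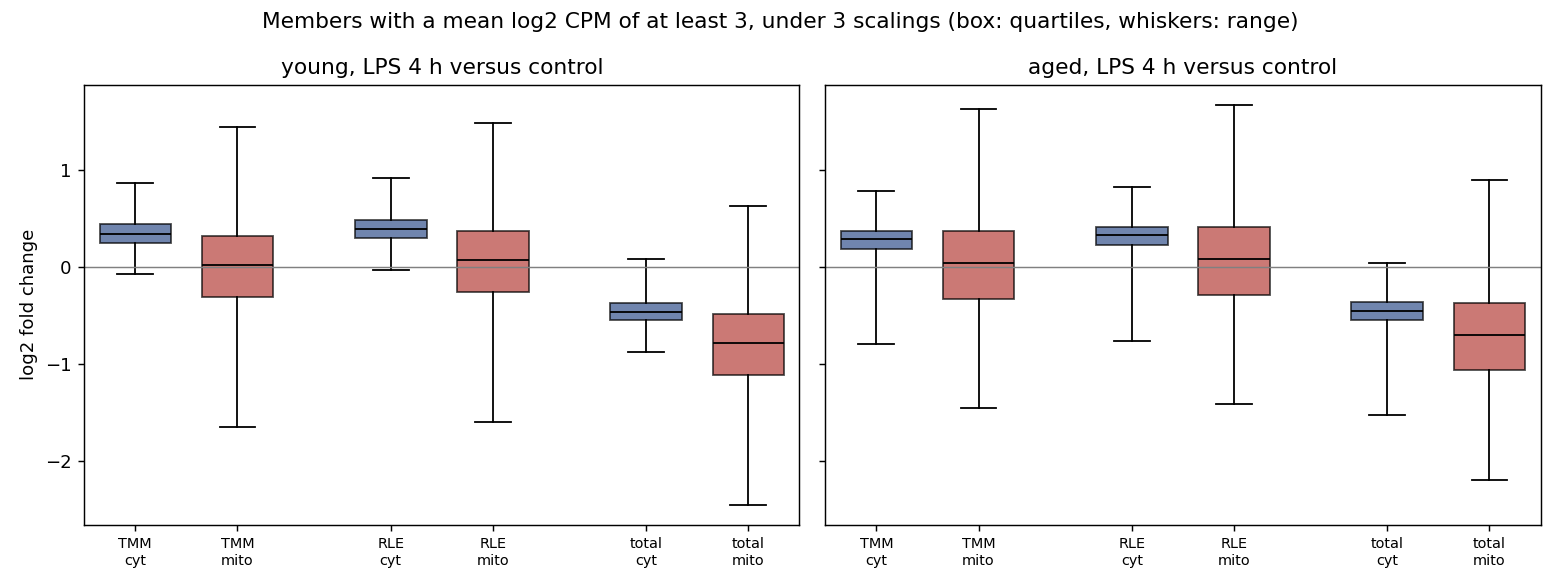
Log2 fold change of LPS 4 h versus control under TMM, RLE and total-count scaling, for the 77 cytosolic (cyt) and 75 mitochondrial (mito) members whose mean log2 CPM was 3 or more. Boxes are quartiles with the median and whiskers span the range. The cytosolic boxes are narrow and lie above 0 with TMM and RLE but below 0 with total counts only, while the mitochondrial boxes are wider under every scaling.

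Cytosolic ribosomal protein genes rose together after LPS on the TMM scale, and fell with total counts only. In young cells 60 of 86 were higher and 0 lower, where 65.0% of all genes were called, 30.3% higher and 34.7% lower. In aged cells 42 were higher and 0 lower, where 55.5% of all genes were called, 26.6% higher and 28.9% lower. The share of cytosolic genes called higher was above that of all genes at both ages. With total counts only, 1 was higher and 72 lower in young cells, and 1 and 64 in aged cells. Both subunits, as assigned by symbol, took part on the TMM scale. In young cells 36 of 52 large and 24 of 34 small subunit genes were higher, and in aged cells 23 and 19. Of the 60 and 42 genes called, 40 were shared, and the matching share over all genes tested is not given here. The genes called include the processed copy Rpl9-ps1, which reached the count minimum through LPS libraries alone, and without it 59 and 41 of 85 were higher. The aged count fell to 27 without aged control replicate 2 and to 26 without aged LPS replicate 2, of which 1 was lower.

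Several core proteins of the small subunit rose at both ages on the TMM scale and were lower with total counts only. Rps20, a protein of the subunit head, was at 132 to 193 TMM-scaled CPM (median 168) in young controls and 221 to 282 (median 265) in young LPS, and at 160, 163 and 186 against 233, 245 and 221 in aged cells, with no overlap at either age. Its log2 fold change was 0.63 (SE 0.068) in young and 0.46 (SE 0.096) in aged cells. Rps24, mutated in some patients with Diamond-Blackfan anaemia, was at 310 to 345 CPM in young controls and 487 to 528 in young LPS, a log2 fold change of 0.61 (SE 0.067), and 0.46 (SE 0.094) in aged cells. Rps6, the protein phosphorylated downstream of mTORC1, was at 290 to 341 CPM in young controls and 431 to 488 in young LPS, and at 360, 335 and 343 against 442, 461 and 448 in aged cells. Its groups did not overlap, and its log2 fold change was 0.52 (SE 0.05) in young and 0.38 (SE 0.071) in aged cells. Rps3, a KH-domain protein at the mRNA entry that also binds NF-κB p65 in human cells, changed by 0.28 (SE 0.061) and 0.30 (SE 0.087). Rps19, the gene most often mutated in Diamond-Blackfan anaemia, changed by 0.23 (SE 0.063) and 0.24 (SE 0.089). All these genes passed the test at both ages, and with total counts only they stood at -0.57 to -0.17 in young cells. The aged calls of Rps3 and Rps19 were lost when single libraries were left out, Rps3 without aged LPS replicate 2 (0.19, adjusted p = 0.0749, edgeR) and Rps19 without aged control replicate 1 or 2 (0.22 and 0.20, adjusted p = 0.0715 and 0.098) or aged LPS replicate 2 or 3 (0.23 and 0.20, adjusted p = 0.0512 and 0.0875).

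Among genes that their symbols place in the large subunit, Rpl7l1, a paralog of Rpl7, had the largest rise of the abundant members called. It was at 60.6 to 93.1 CPM (median 68.4) in young controls and 101 to 119 (median 111) in young LPS, and at 64.9, 70.8 and 65.2 against 109, 104 and 114 in aged cells. Every LPS library was above every control, with a log2 fold change of 0.63 (SE 0.063, adjusted p = 7.46e-12, edgeR) and 0.70 (SE 0.089, adjusted p = 5e-09). Rpl7 itself rose by 0.47 (SE 0.051) and 0.36 (SE 0.071), and Rpl27 by 0.51 (SE 0.075) and 0.48 (SE 0.11). Rpl5 and Rpl11, which with 5S rRNA bind Mdm2 and so stabilise p53, both rose, and the difference between them was not tested. Rpl5 rose by 0.41 (SE 0.055) and 0.26 (SE 0.077). Rpl11 rose by 0.20 (SE 0.09, adjusted p = 0.0496, edgeR) in young and 0.33 (SE 0.13, adjusted p = 0.025) in aged cells, and the young call was lost without control replicate 1, 2 or 5 or LPS replicate 1, 2, 4 or 6 (0.15 to 0.21, adjusted p 0.0596 to 0.15). The aged call of Rpl11 was lost without control replicate 2 or 3 (0.32, adjusted p = 0.0645 and 0.0605) or LPS replicate 2 (0.15, adjusted p = 0.348). Under total counts only Rpl7l1 stood at -0.17 and -0.03, Rpl7 at -0.33 and -0.38, Rpl27 at -0.29 and -0.26, Rpl5 at -0.39 and -0.48, and Rpl11 at -0.60 and -0.41.

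The test was not passed by 26 of 86 cytosolic members in young and 44 in aged cells. Among them, Rpl3, which reaches into the peptidyl transferase centre, was at 467 to 505 CPM in young controls and 483 to 526 in young LPS, and at 488, 484 and 485 against 491, 536 and 538 in aged cells. The young groups overlapped, and the log2 fold change was 0.08 (SE 0.047, adjusted p = 0.149, edgeR) in young and 0.10 (SE 0.067, adjusted p = 0.195) in aged cells. Rpl22 was at 103 to 127 CPM in young controls and 109 to 117 in young LPS, with a log2 fold change of -0.03 (adjusted p = 0.717), and -0.14 in aged cells (adjusted p = 0.18, and -0.26 with adjusted p = 0.0211 without aged LPS replicate 2). Its paralog Rpl22l1, whose expression Rpl22 protein is known to repress, was at 10.9 to 19.8 CPM and 15.6 to 25.7, with a log2 fold change of 0.46 (SE 0.15, adjusted p = 0.0068) in young and 0.41 (SE 0.21, adjusted p = 0.101) in aged cells. The difference between the paralogs was not tested.

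The mitochondrial ribosomal protein genes did not move as a block. In young LPS 23 of 77 rose and 21 fell, and in aged LPS 21 rose and 19 fell, at the background of 65.0% and 55.5% given above, so the shares of rises and falls were near or below those of all genes. By symbol, the large subunit held 17 rises and 14 falls among 48 genes in young cells and 16 and 14 in aged cells. The small subunit held 6 and 7 among 29, and 5 and 5. The small subunit counts include Mrps18a and Mrps36, whose place is treated below. Over the abundant members (mean log2 CPM 3 or more), the SD of the young LPS log2 fold changes was 0.56 for 75 mitochondrial genes and 0.17 for 77 cytosolic genes. With total counts only, 3 rose and 69 fell in young cells and 2 rose and 61 fell in aged cells.

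Mrpl52, a large subunit protein (chr14:54426909-54429756, plus strand, mm10), rose the most. It was at 22.8 to 54.2 CPM (median 39.3) in young controls and at 77.9 to 139 (median 102) in young LPS. In aged cells it was at 27.2, 24.1 and 33.4 in controls and 73, 92.7 and 97.2 with LPS. Every LPS library exceeded every control, with a log2 fold change of 1.44 (SE 0.098, adjusted p = 1.23e-16, edgeR) in young and 1.63 (SE 0.14, adjusted p = 2.38e-13) in aged cells, and it stayed higher with total counts only, at 0.63 and 0.90.

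Mrpl39 (chr16:84717576-84735742, minus strand), also of the large subunit, had the second largest rise. It was at 17 to 20.4 CPM (median 18.7) in young controls and 41.2 to 47.5 (median 45.7) in young LPS, and at 17.7, 20.5 and 21.3 against 49.4, 50.6 and 44.8 in aged cells. The groups lay far apart at both ages, with log2 fold changes of 1.26 (SE 0.07, adjusted p = 8.99e-20, edgeR) and 1.28 (SE 0.099, adjusted p = 8.08e-15), and of 0.46 and 0.54 with total counts only. Mrpl3, beside the peptidyl transferase centre, went from 36.9 to 42.7 CPM in young controls to 70.8 to 89 in young LPS, and from 42.3, 38.3 and 43.1 to 73.1, 62.9 and 73.5 in aged cells. Its log2 fold change was 0.96 (SE 0.056) and 0.76 (SE 0.079), again without overlap, and 0.15 and 0.02 with total counts only. Mrpl54 rose by 0.89 (SE 0.11) and 0.75 (SE 0.15) and Mrpl27 by 0.78 (SE 0.074) and 0.83 (SE 0.1), with values between -0.02 and 0.09 under total counts only. Mrpl45, which in human cells anchors the ribosome to the inner mitochondrial membrane, rose by 0.68 (SE 0.077) and 0.65 (SE 0.11), and stood at -0.12 and -0.09 with total counts only.

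Mrpl41 (chr2:24974117-24975098, minus strand), a large subunit protein that has been tied to p53 in human cells, fell the most. It was at 11.3 to 15 CPM (median 12.5) in young controls and 2.81 to 5.84 (median 4.04) in young LPS, and at 16, 12.9 and 17.3 against 5.54, 6.53 and 4.9 in aged cells. All LPS libraries were below all controls, and the log2 fold change was -1.65 (SE 0.13, adjusted p = 3.7e-15, edgeR) in young and -1.45 (SE 0.17, adjusted p = 1.64e-09) in aged cells. Mrpl49 (chr19:6053630-6057751, minus strand) fell from 19.4 to 22.8 CPM in young controls to 7.08 to 9.97 in young LPS, and from 21.5, 25.2 and 19.5 to 7.19, 11.2 and 8.8 in aged cells. Its log2 fold change was -1.26 (SE 0.1) and -1.29 (SE 0.15), again without overlap.

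Mrpl18, which in human cells takes part in the import of 5S rRNA into mitochondria, fell from 22.4 to 27.5 CPM in young controls to 8.41 to 13.3 in young LPS, and from 24.3, 25.1 and 28.1 to 14.5, 10.7 and 15.8 in aged cells. The log2 fold change was -1.16 (SE 0.1) and -0.91 (SE 0.14). The small subunit gene Mrps35 was at 11.9 to 13.6 CPM in young controls and 3.62 to 7.4 in young LPS, and at 10.6, 12.4 and 10.8 against 7.52, 5.31 and 7.83 in aged cells. It fell by 1.23 (SE 0.13) in young and by 0.70 (SE 0.18) in aged cells on the log2 scale, and the difference between ages of 0.53 did not pass the test (adjusted p = 0.773, edgeR). Mrps26 changed by -0.79 (SE 0.13) and -0.92 (SE 0.18), Mrpl2 by -0.83 (SE 0.11) and -0.56, Mrpl43 by -0.56 (SE 0.087) and -0.70 (SE 0.12), and Mrpl12, which binds the mitochondrial RNA polymerase in human cells, by -0.57 (SE 0.1) and -0.43. All of these falls passed the test at both ages. The aged call of Mrpl12 was lost without aged control replicate 3 (-0.32, adjusted p = 0.0931).

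**Figure D3:**
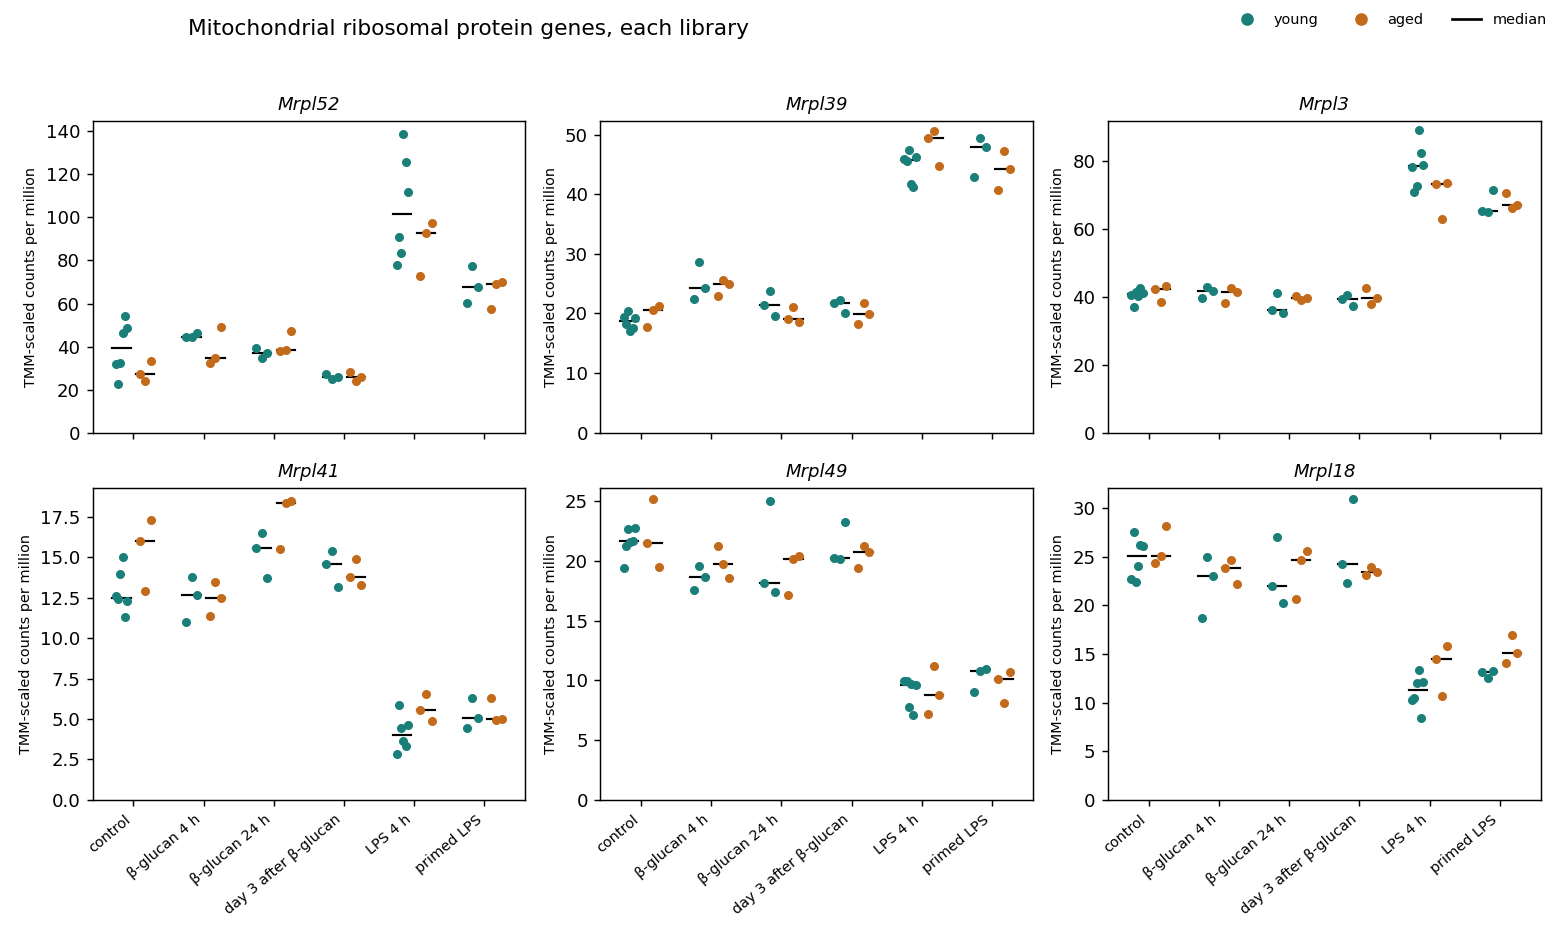
TMM-scaled CPM of 3 mitochondrial ribosomal protein genes that rose with LPS (upper row) and 3 that fell (lower row) in each library, by treatment and age. Points are libraries and lines are medians. In every panel the LPS and primed LPS libraries lie apart from the others, and with total counts only Mrpl3 in the upper row stands near 0 change (log2 0.15 in young and 0.02 in aged cells).

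Since ratios of genes within a library do not depend on the scaling, the split was also read from them. The ratio of Mrpl52 to Mrpl41 counts ran from 1.6 to 4.8 (median 2.45) in the 27 libraries without LPS and from 9.08 to 38.4 (median 14.2) in the 15 with LPS. The ratio of Mrpl39 to Mrpl49 ran from 0.79 to 1.46 (median 1.02) and from 4.03 to 6.87 (median 4.63). Neither ratio overlapped between libraries with and without LPS, at either age and with or without priming. These pairs were chosen after their values had been seen. Their promoters are shown for Mrpl52 and Mrpl41, the gene with the largest rise and the one with the largest fall, as the 250 bases before the start in GRCm38.p6 from RefSeq, at chr14:54426659-54426908 (plus) and chr2:24975099-24975348 (minus). Capitals mark the letters AAGATGG and CCGGAAG on either strand, found once each in these 250 bases of Mrpl52 and not found in those of Mrpl41. CCGGAAG occurs again, on the other strand, in the first bases after the start of Mrpl52 shown above. Among mitochondrial members with CCGGAAG, 7 of 25 rose and 8 fell in young LPS, against 13 and 12 of 43 without it. In aged LPS these were 7 and 6, against 11 and 12. With AAGATGG, 6 of 13 rose and 3 fell in young LPS, against 14 and 17 of 55 without it. In aged LPS these were 5 and 4, against 13 and 14. A part of these letters in the split was not tested.
Mrpl52: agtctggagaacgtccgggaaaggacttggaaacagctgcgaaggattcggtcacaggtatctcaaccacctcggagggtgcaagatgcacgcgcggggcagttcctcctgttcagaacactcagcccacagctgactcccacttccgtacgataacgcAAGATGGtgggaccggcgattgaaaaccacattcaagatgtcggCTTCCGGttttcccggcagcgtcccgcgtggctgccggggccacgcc
Mrpl41: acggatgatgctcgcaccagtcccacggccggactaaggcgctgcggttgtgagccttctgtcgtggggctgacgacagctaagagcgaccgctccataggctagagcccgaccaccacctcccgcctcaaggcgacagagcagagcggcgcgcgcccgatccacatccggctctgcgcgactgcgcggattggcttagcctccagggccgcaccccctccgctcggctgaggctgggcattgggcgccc

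Some members carry the family name with another place or role. The Mrps18 paralogs, of which the human protein of Mrps18a sits in the large subunit in spite of its name, differed in their values. Mrps18a changed by 0.40 (SE 0.075) in young and 0.49 in aged LPS, and Mrps18c by 0.43 and 0.54, all 4 called. Mrps18b changed by 0.12 (adjusted p = 0.404, edgeR) and 0.02 (adjusted p = 0.95). With total counts only Mrps18a stood at -0.40 and -0.25, Mrps18b at -0.67 and -0.72 and Mrps18c at -0.37 and -0.20. Mrps36, now known as a subunit of the 2-oxoglutarate dehydrogenase complex, changed by -0.43 (adjusted p = 0.000456) and -0.35 (adjusted p = 0.0446, lost without aged control replicate 1 or 3 or aged LPS replicate 1 or 3, with adjusted p of 0.0553 to 0.264). Rps19bp1, a partner of Rps19 and of Sirt1 and no ribosomal subunit, changed by 0.20 (adjusted p = 0.0866) and 0.41 (SE 0.14, adjusted p = 0.0141). Its young value passed the test without young control replicate 5 (0.24, adjusted p = 0.0442) or young LPS replicate 5 (0.26, adjusted p = 0.0257), and its aged value did not without aged control replicate 1 (0.37, adjusted p = 0.0595) or aged LPS replicate 2 (0.33, adjusted p = 0.0871).

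The LPS response of the mitochondrial genes was alike at both ages, gene by gene. Of the rises, 20 were called at both ages and of the falls 17, with 0 genes called in opposite directions. These are 20 of 23 and 20 of 21 rises, and 17 of 21 and 17 of 19 falls. The matching shares and correlation over all genes tested are not given here, so the likeness of the ages cannot be called particular to these genes. Across the 75 abundant mitochondrial genes, the young and aged log2 fold changes correlated with r = 0.96 and shared their sign in 69 genes. Across the 77 abundant cytosolic genes r was 0.23 and the sign was shared in 72, over a far narrower range of values. These correlations are across genes of libraries that share no control, and genes are not independent replicates. The difference of the LPS effect between ages was called for 0 of 163 members by edgeR and by DESeq2, with 3 cytosolic and 3 mitochondrial genes at an unadjusted p under 0.05, where 0% of all genes were called by edgeR. The age differences of the other 4 treatment effects were likewise called for 0 members by edgeR and by DESeq2, with at most 2 cytosolic and 3 mitochondrial genes at an unadjusted p under 0.05 in any of them.

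**Figure D4:**
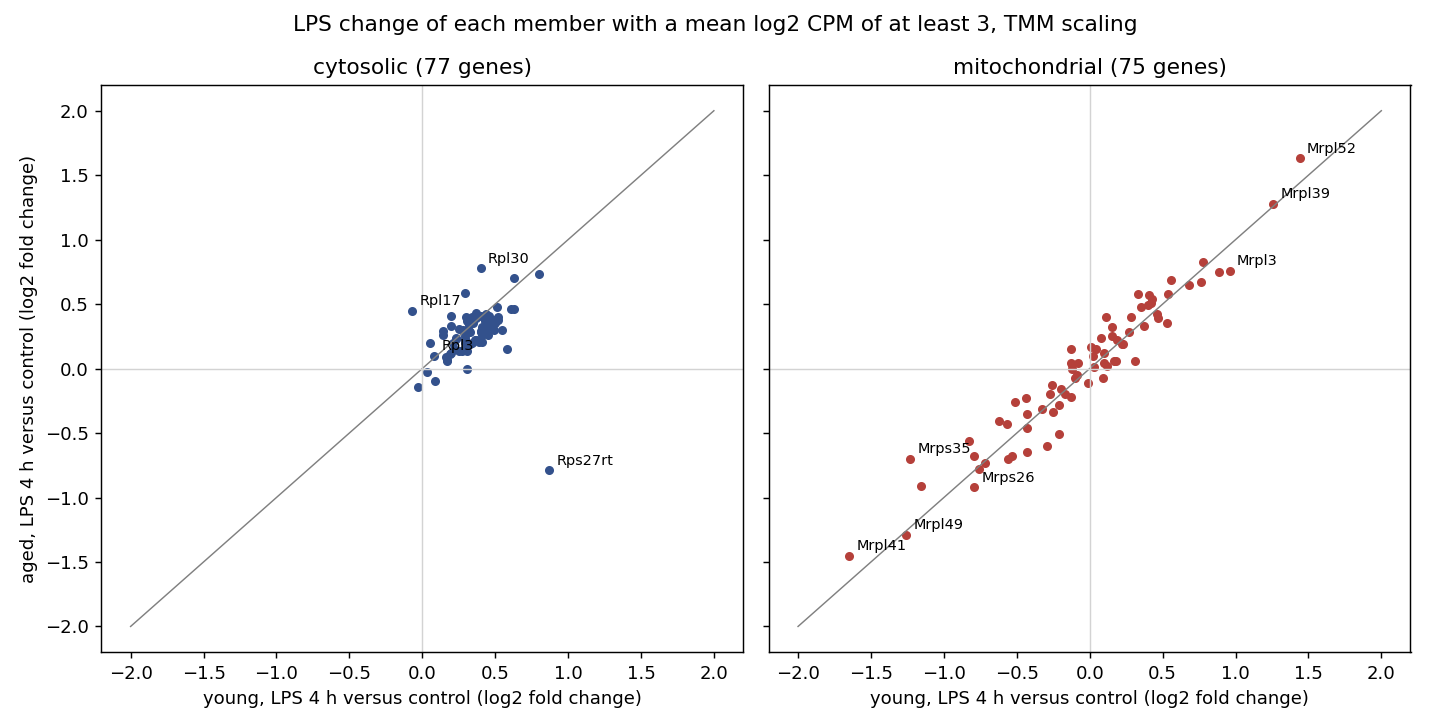
Log2 fold change of LPS 4 h versus control (TMM) in young (x axis) and aged cells (y axis), 1 point per gene, for the 77 cytosolic and 75 mitochondrial members whose mean log2 CPM was 3 or more. The line marks equal values. Mitochondrial genes spread along the line from Mrpl41 to Mrpl52, while the cytosolic genes, apart from Rps27rt, gather near 0 to 0.8. With total counts only, nearly all cytosolic genes lie below 0 at both ages.

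LPS given to primed cells, compared with day 3 after β-glucan, was read in the same way. Among cytosolic genes 35 rose and 2 fell in young cells, where 51.7% of all genes were called (24.9% higher, 26.7% lower), and 35 rose and 0 fell in aged cells, where 52.2% were called (24.8% higher, 27.4% lower). The cytosolic median was 0.24 in young and 0.22 in aged cells with TMM, and -0.44 at both ages with total counts only. Under the 3 scalings 79 of 86 genes lay above the median of all genes, apart from 78 in aged cells with RLE. A change of scaling can hardly alter this count. With no count filter it was 77 of 86 in young and 75 of 86 in aged cells. Among mitochondrial genes 17 rose and 18 fell in young cells and 18 rose and 19 fell in aged cells, all below the shares of all genes. Rpl7l1 changed by 0.54 and 0.45 and Rps20 by 0.49 and 0.39 in young and aged cells. With total counts only Rpl7l1 stood at -0.13 and -0.20 and Rps20 at -0.19 and -0.27. Mrpl52 was at 60.2, 77.4 and 67.7 CPM in young and 57.3, 69.3 and 70.1 in aged primed LPS, a log2 fold change of 1.40 (SE 0.14) and 1.34. Mrpl39 was at 42.9, 49.4 and 48 CPM in young and 40.7, 47.2 and 44.2 in aged primed LPS, with log2 fold changes of 1.13 and 1.14. Mrpl3 rose by 0.78 and 0.76, and with total counts only by 0.11 and 0.10, which did not pass the test, while Mrpl41 changed by -1.45 and -1.37, Mrpl49 by -1.05 and -1.09, and Mrpl18 was lower at both ages (adjusted p = 1.36e-07 and 0.000354, edgeR). All values named here passed the test on the TMM scale.

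Levels in primed LPS were also compared with those in naive LPS. The labels give no harvest day for naive LPS cells, so priming and a difference in time cannot be told apart here. A single cytosolic gene, Rpl41, was called in young cells, where 3.61% of all genes were called (2.44% higher, 1.17% lower), and 0 in aged cells, where 0.986% were. No mitochondrial gene was called at either age by edgeR, with 5 at each age at an unadjusted p under 0.05, and DESeq2 called 1 in young and 0 in aged cells. In aged cells 6 cytosolic genes had an unadjusted p under 0.05 and DESeq2 called 0.

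Rpl41, a very short basic protein of the large subunit (chr10:128548114-128549305, minus strand, mm10), was at 107, 165 and 143 CPM in young primed LPS. It was at 269 to 428 CPM (median 383) in young naive LPS, 287, 335 and 245 on day 3 after β-glucan, and 292 ± 68 (SD, n = 6) in young controls, of which the lowest was also above 165. The 3 young primed LPS libraries were below every library of the other 3 groups. The log2 fold change was -1.16 (SE 0.23, adjusted p = 0.00236, edgeR) against naive LPS and -1.07 (SE 0.24, adjusted p = 0.000319) against day 3. LPS itself moved Rpl41 by 0.32 in naive young cells (adjusted p = 0.0971), and the difference of the primed from the naive LPS effect was -1.38 (SE 0.29, adjusted p = 0.0154), among 1.01% of all genes called (0.640% higher, 0.374% lower). It was not called without young primed LPS replicate 1 (-1.23, adjusted p = 0.0627), without young day 3 replicate 2 (-1.26, adjusted p = 0.0735) or with young replicates 1 to 3 alone (-1.49, adjusted p = 0.0805). In aged cells Rpl41 was at 196, 304 and 351 CPM in primed and 253, 431 and 343 in naive LPS, which overlapped, and the difference between ages did not pass the test (0.89, adjusted p = 0.802). The reads of Rpl41 varied among replicates more than those of most members, with a within-group SD of 0.32 on the log2 scale against a cytosolic median of 0.153.

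The other fall in young primed LPS against day 3 was Rpl13a, known in human myeloid cells for a part in silencing inflammatory mRNAs. The gene as counted here was low, at 6.11 to 6.82 CPM in primed LPS and 8.42 to 9.67 on day 3, and its log2 fold change was -0.47 (SE 0.16, adjusted p = 0.0119, edgeR), and -0.41 (adjusted p = 0.0579) without young day 3 replicate 1. In aged cells it was 0.01 (adjusted p = 0.982, and -0.65 with total counts only), and the difference between ages was not tested for this contrast. Rps27rt, a retrogene of Rps27, was called in aged primed LPS with 57, 93.5 and 47.4 CPM against 11.3, 20.8 and 16.1 on day 3 (log2 2.04, SE 0.68, adjusted p = 0.0121). The call was lost without aged day 3 replicate 1 (1.84, adjusted p = 0.0575) or aged primed LPS replicate 2 (1.70, adjusted p = 0.0575). Rps27 in the same libraries was at 78.4, 17.2 and 72.1 CPM and at 59.3, 82 and 74.9, so the primed library with the highest Rps27rt had the lowest Rps27.

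β-glucan alone changed few members. After 4 h in young cells 1 cytosolic and 4 mitochondrial genes rose and 0 fell, where 12.1% of all genes were called (7.45% higher, 4.61% lower), and after 24 h 1 and 3 rose and 0 fell, where 11.5% were called (7.79% higher, 3.75% lower). In aged cells 0 cytosolic genes were called at either time, by edgeR at 4 h with 2 genes at an unadjusted p under 0.05 and DESeq2 calling 0, and at 24 h with 10 and 1. A single mitochondrial gene rose at 4 h and 2 at 24 h in aged cells, where 6.47% (4.87% higher) and 5.22% (4.02% higher) of all genes were called. The members' shares of calls were below those of all genes in each of these comparisons. The control was harvested at another time than the 4 h and 24 h samples, and treatment and time cannot be told apart.

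Mrpl52 was the leading gene at 4 h. It was at 44.6, 44.3 and 46.2 CPM in young β-glucan 4 h against 32, 22.8 and 32.2 in young control replicates 1 to 3 and 46.5, 54.2 and 48.7 in replicates 4 to 6. The treated libraries were above the first set and below the second. The log2 fold change was 0.58 (SE 0.13, adjusted p = 0.00107, edgeR) with the term for the sets, 0.63 with replicates 1 to 3 alone and 0.19 (adjusted p = 0.595) without the term. In aged cells Mrpl52 was at 32.3, 34.5 and 49.2 CPM at 4 h, a log2 fold change of 0.45 (SE 0.14, adjusted p = 0.0365) that was lost without aged control replicate 1 (0.42, adjusted p = 0.142) or 2 (0.35, adjusted p = 0.265) or aged β-glucan replicate 3 (0.24, adjusted p = 0.508). At 24 h in aged cells it changed by 0.54 (SE 0.14, adjusted p = 0.0121), lost without aged control replicate 1 or 2 or aged β-glucan replicate 3 (0.52, 0.44 and 0.44, adjusted p = 0.0642, 0.136 and 0.093).

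Mrpl39 was at 22.4, 28.7 and 24.3 CPM in young β-glucan 4 h, above all 6 young controls. Its log2 fold change was 0.38 (SE 0.091, adjusted p = 0.00291, edgeR), and 0.27 (adjusted p = 0.0862) without β-glucan replicate 2. In aged cells it was at 23, 25.6 and 24.9 CPM, also above its controls, with 0.30 (adjusted p = 0.0539, and 0.36 with adjusted p = 0.0474 without aged control replicate 3). Mrpl45 was at 26.5, 23.9 and 27.7 CPM in young β-glucan 24 h and 25.3, 25.3 and 30.1 in aged, above all controls of the same age. Its log2 fold change at 24 h was 0.49 (SE 0.1, adjusted p = 0.00071) in young and 0.42 (SE 0.11, adjusted p = 0.0117) in aged cells, and the aged call was lost without control replicate 1 or 2 or β-glucan replicate 3 (0.36, 0.43 and 0.34, adjusted p = 0.108, 0.0524 and 0.102). No single library ended the young 24 h call of Mrpl45.

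Other mitochondrial genes called with β-glucan changed little, and their calls rested on single libraries. At 4 h in young cells Mrpl32 changed by 0.37 (adjusted p = 0.0412, edgeR), lost without control replicate 2, 3, 4 or 6 or β-glucan replicate 2 or 3 (0.31 to 0.37, adjusted p 0.0579 to 0.209). Mrpl45 changed by 0.30 (adjusted p = 0.0387), lost without control replicate 1 or 3 or any β-glucan replicate (0.27 to 0.33, adjusted p 0.0598 to 0.173). At 24 h Mrpl43 changed by 0.38 (adjusted p = 0.0203), lost without control replicate 2 or 3 or β-glucan replicate 1 or 3 (0.29 to 0.39, adjusted p 0.051 to 0.208). Mrpl4 changed by 0.31 (adjusted p = 0.0416), lost without control replicate 1, 2 or 3 or any β-glucan replicate (0.26 to 0.32, adjusted p 0.0524 to 0.145). On day 3 after β-glucan 0 members were called at either age by edgeR or DESeq2, where 0.782% of all genes were called in young and 0.221% in aged cells. At an unadjusted p under 0.05 stood 2 cytosolic and 3 mitochondrial genes in young and 1 and 3 in aged cells.

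No member passed the threshold between ages in edgeR. In the comparison of aged with young cells 0 of 163 members were called by edgeR under each of the 6 treatments, where between 0.00567% (β-glucan 4 h) and 0.895% (LPS, 0.567% higher and 0.329% lower) of all genes were called, with 0.442% in controls, 0.0170% at β-glucan 24 h, 0.0113% on day 3 and 0.0283% in primed LPS. At an unadjusted p under 0.05 stood 6 cytosolic and 3 mitochondrial genes in controls, 4 and 8 in LPS, and at most 2 and 5 in the other 4 treatments. DESeq2 called 1 mitochondrial gene in controls and 1 in LPS and 0 in the other treatments. With the replicate number as a block, edgeR called Mrpl52 lower in aged cells in controls (-0.44, adjusted p = 0.0283) and at β-glucan 4 h (-0.58, adjusted p = 0.0355). The medians of the members' log2 differences lay between -0.07 and 0.04 under every treatment. The centred term for replicates 4 to 6 moves the young level by 0.5 of the set difference in the 4 treatments that hold replicates 1 to 3 only. Against young replicates 1 to 3 alone, the medians were 0.10 to 0.14 in controls and between 0.00 and 0.08 in the other treatments, with 0 members called. Mrpl52 at β-glucan 4 h was -0.56 (adjusted p = 0.231, edgeR) with the term and -0.22 (adjusted p = 0.838) against replicates 1 to 3 alone. The median SE was 0.086 for the cytosolic and 0.121 for the mitochondrial genes in controls, which sets the size of difference that could be seen.

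Mrpl52 and Mrps6 came closest to the threshold between ages. Mrpl52 was lower in aged than in young controls by a log2 difference of -0.43 (adjusted p = 0.107, edgeR). The difference was -0.82 (adjusted p = 0.00231) against young replicates 4 to 6 alone and -0.04 (adjusted p = 0.98) against replicates 1 to 3 alone, so it differed with the set of young controls used. It passed the test with DESeq2 (-0.44, adjusted p = 0.0432) and without young control replicate 2 (-0.50, adjusted p = 0.0168). Mrps6 was at 3.15 to 4.39 CPM in the 3 aged LPS libraries and 4.75 to 6.46 in the 6 young ones, without overlap, with an adjusted p of 0.0899 in edgeR and of 0.0303 in DESeq2 (log2 difference -0.63).

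Many cytosolic members have processed pseudogenes, intronless copies of their mRNA elsewhere in the genome. For some of them the division of counts between gene and copy differed between libraries. How reads were assigned was not examined. Rpl30 (chr15:34440505-34443640, minus strand, mm10) was at 52.7 to 172 CPM over the 42 libraries, its 5 copies together at 3.14 to 78, and their sum at 96 to 179. The within-group SD of Rpl30 was 0.454 on the log2 scale alone and 0.133 with its copies added, and gene and copies varied in opposite directions within groups (r = -0.87 over 42 libraries). Rps27a (-0.86) and Rpl17 (-0.84) had similar values, and Rpl41 came next with -0.47. Most other members with copies had r near 0 or above. The first 120 coding bases of Rpl30 and of 2 of its copies are shown to let the likeness be seen, from GENCODE M21 transcripts on GRCm38, at chr15:34442682-34443045 (minus, spliced), chr11:49678938-49679057 (minus) and chrX:71803688-71803807 (plus). Capitals mark bases that differ from Rpl30, counted from 1 at the A of the start codon. Gm12191 has G96A, and Rpl30-ps10 has G10T, C20T and G96A, and over all 345 coding bases these are the only 1 and 3 differences.
Rpl30: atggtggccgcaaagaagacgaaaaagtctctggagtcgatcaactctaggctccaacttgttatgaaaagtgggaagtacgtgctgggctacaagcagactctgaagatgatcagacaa
Gm12191: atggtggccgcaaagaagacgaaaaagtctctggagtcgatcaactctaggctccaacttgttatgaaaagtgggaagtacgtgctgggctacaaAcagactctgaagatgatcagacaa
Rpl30-ps10: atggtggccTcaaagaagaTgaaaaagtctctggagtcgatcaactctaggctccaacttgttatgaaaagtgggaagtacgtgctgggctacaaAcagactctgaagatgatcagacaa

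**Figure D5:**
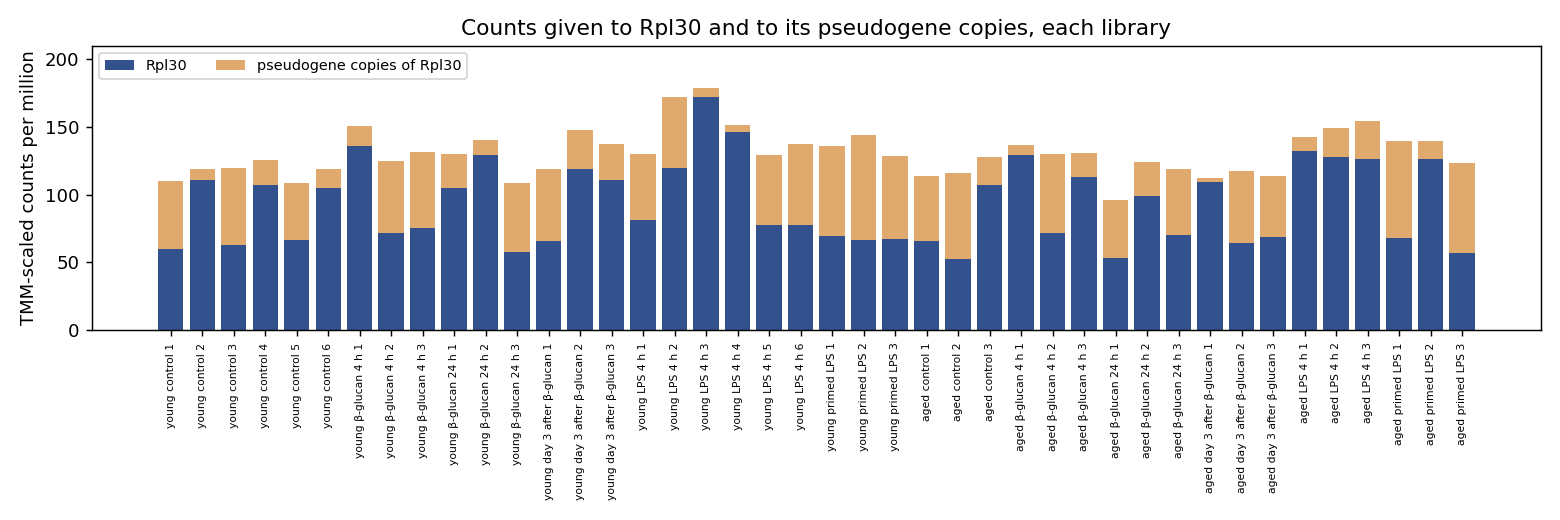
TMM-scaled CPM counted for Rpl30 and for its 5 pseudogene copies in each of the 42 libraries, as stacked bars from 0. Libraries of the same group differ in the part that falls to the copies, and the sum stays between 96 and 179 CPM.

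Other members also had counts on their copies, to different degrees. Rpl17 was at 32.6 to 142 CPM, its 7 copies at 122 to 265 and the sum at 199 to 322, and the within-group SD went from 0.568 to 0.0769 when the copies were added. Rps27a, which is made as a fusion with ubiquitin, ran from 76.3 to 307 CPM with a within-group SD of 0.532 alone and 0.447 with its 2 copies, so most of its spread stayed. Of the counts of Rps10, 98.5% fell to its copies, with 0.264 to 1.69 CPM on the gene and 48.4 to 95 on the copies, which did not vary in opposite directions within groups (r = 0.25 over 42 libraries), and Rpl24 held 0.181 to 2.12 CPM of its own in young libraries. Rps27 and Rps27rt are identical over their 252 coding bases, and in the aged controls Rps27rt stood at 10.9, 95.5 and 12.8 CPM where Rps27 stood at 82.7, 30.9 and 79. Rpl9-ps1, a copy whose name the rule takes, was listed at 0 in all controls and at 0.0608 to 0.458 CPM in young LPS. The LPS values of such genes are uncertain, and Rpl30 (0.40 and 0.78), Rpl17 (-0.07 and 0.45) and Rps27rt (0.87 and -0.79) were called at neither age. Of the 10 cytosolic members that share under 10% of their 50-base windows with another gene, 7 rose at each age, with a median of 0.53 in young and 0.43 in aged cells. Among the leading mitochondrial genes, Mrpl52, Mrpl39 and Mrpl3 share 0 windows, Mrps35 0.7%, Mrpl49 2.2%, Mrpl41 11.3% and Mrpl18 12.6%.

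Other genes of the pathway, from lists set alongside the members, can be read against these counts. Of the 7 cytosolic ribosomal proteins whose names fall outside the rule (such as Rplp0, Rplp1, Rpsa and Rack1), 5 rose in young and 4 in aged LPS, with a median log2 fold change of 0.36 and 0.28, and of -0.44 and -0.45 with total counts only. Of 5 such mitochondrial proteins (Dap3, Ptcd3, Chchd1, Aurkaip1 and Gadd45gip1), 0 were called in young and 1 fell in aged LPS, with a median of -0.08 and -0.12, and with total counts only all 5 were lower at both ages (median -0.88 and -0.85). Translation factors and other mRNAs with a 5′ TOP start, such as Eef1a1 and Tpt1, numbered 16 rises and 2 falls among 20 in young and 13 and 2 in aged LPS, with a median of 0.36 and 0.27, and of -0.44 and -0.47 with total counts only. Genes of ribosome biogenesis and RNA polymerase I, such as Ncl and Fbl, numbered 13 rises and 13 falls among 41 in young LPS. In aged LPS they numbered 12 and 10, and the median was -0.09 and -0.03. These shares of rises and falls were near those of all genes. With total counts only the biogenesis genes showed 4 rises and 35 falls in young and 4 and 31 in aged LPS (median -0.89 and -0.76). Factors of mitochondrial translation, ribosome assembly and transcription numbered 7 rises and 17 falls among 33 in young and 5 and 11 in aged LPS, with a median of -0.26 and -0.14, and 0 rises with 31 and 29 falls with total counts only (median -1.06 and -0.88). Of all 17648 genes tested, 5352 rose and 6126 fell in young LPS, and 4696 and 5102 in aged LPS. They had a median of -0.10 and -0.08, and -0.90 and -0.82 with total counts only. Proliferation genes showed 16 falls and 0 rises among 20 in young and 14 and 0 in aged LPS, with a median of -1.37 and -1.32, and their part in the ribosomal values was not tested. The 7 genes listed to check the LPS treatment were all called higher at both ages, with a median of 10.33 and 10.46.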

How the data were processed

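The authors deposited raw gene counts, whole numbers with 1 column for each of 42 libraries, with gene names, positions and lengths in mm10. Per the submitters' processing notes, reads were aligned with STAR to mm10. The counting program, annotation and strand setting are not given in the sources used here, and reads of overlapping genes on opposite strands, or of near-identical copies, may have been divided between them. Libraries were made with the NEBNext Ultra kit, per the labels' protocols. The authors' FPKM table was not used.

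Differential expression was tested with edgeR 4.0.16 in R 4.3.3 (TMM, filterByExpr with a minimum count of 10, robust glmQLFit, glmQLFTest, prior count 2), in 1 model of 12 groups with a term for young replicates 4 to 6, centred between both sets of replicates. The filter kept 32.4% of genes, which held at least 99.98% of counts, and 0 pairs of libraries were identical. P-values were adjusted by Benjamini-Hochberg over all genes of a comparison. DESeq2 1.42.0 was an alternative. On simulated counts of the young LPS comparison (17002 genes) the fit recovered 92.5% of the 67 genes changed 1.5-fold. It recovered 100% of the 67 genes changed 2-fold and of the 66 changed 4-fold, with 5.8% of calls false. Recovery of fold changes under 1.5, or with 65.0% of genes called as in young LPS, was not tested.

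Members, lists, comparisons and tests were chosen with earlier results of these data known. Named genes are the 3 largest rises and falls among called members whose mean log2 CPM was 3 or more, per comparison and ribosome, and members with a paralog or known role. Some that the rule takes are not reported here by name, and stay in the counts and medians. Others, such as Rpl27, Rpl30, Rpl17, Rps27a, Rps10, Rpl24, Mrpl2 and Mrpl54 where the rule did not take them, were chosen after their values were seen. Copies were found by shared 50-base windows of GENCODE M21 transcripts.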

Additional observations from a re-analysis of the deposited data

Results flagged for a closer look

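The LPS effect on Rpl41 in young cells differed between primed and naive macrophages, by a log2 difference of -1.38 (SE 0.29, adjusted p = 0.0154, edgeR's quasi-likelihood test on the interaction of LPS and priming). It was flagged because the difference itself passed the test. All 3 primed LPS libraries, at 107, 165 and 143 TMM-scaled CPM, were below the 3 libraries of day 3 after β-glucan at 287, 335 and 245, whereas naive LPS cells and controls overlapped. In aged cells the difference was -0.37 (adjusted p = 0.9, edgeR). As given above, the young call was lost when certain single libraries were left out and with the first set of young replicates alone. The labels give no harvest day for naive LPS cells, so priming and time cannot be told apart.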

How the results depend on the processing

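Total-count scaling turned the LPS family result. With it, calls among cytosolic genes numbered 73 in young LPS, 65 in aged LPS, 67 in young and 68 in aged primed LPS versus day 3, nearly all of them lower, and 1 lower gene at young β-glucan 24 h. The mitochondrial counts were 72, 63, 63 and 62. Single genes that changed sign with total counts only were, in young and aged LPS, Rps20 (-0.17, -0.28), Rps24 (-0.19, -0.28), Rps6 (-0.28, -0.36), Rps3 (-0.52, -0.43), Rps19 (-0.57, -0.49), Rpl7l1 (-0.17, -0.03), Rpl7 (-0.33, -0.38), Rpl27 (-0.29, -0.26), Rpl3 (-0.72, -0.63), Rpl5 (-0.39, -0.48), Rpl11 (-0.60, -0.41), Rps19bp1 (-0.60, -0.33), Mrpl45 (-0.12, -0.09), Mrps18a (-0.40, -0.25), Mrps18b (-0.67, -0.72), Mrps18c (-0.37, -0.20), Rpl22l1 (-0.34, -0.33) and Rpl41 (-0.49, -0.44), in young LPS Mrpl27 (-0.02), which stood at 0.09 in aged LPS, and in young and aged primed LPS Rps20 (-0.19, -0.27), Rpl7l1 (-0.13, -0.20) and, in aged alone, Rpl13a (-0.65). The cause was not tested.

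Counts of few genes also moved. Cytosolic calls at young β-glucan 4 h were 0 with RLE, total counts, no filter or pseudogene copies added and 2 with young replicates 1 to 3 alone, and at 24 h 0 without the term for replicates 4 to 6, 5 with replicates 1 to 3 alone and 3 with DESeq2. Mitochondrial calls were 2 with RLE or no filter and 1 with total counts at 4 h, and at 24 h 1 with total counts or without the term and 7 with replicates 1 to 3 alone. In aged cells mitochondrial calls at 4 h were 0 with total counts, no filter or no term and 2 with DESeq2 or young replicates 1 to 3 alone, and at 24 h 1 with total counts or no term. Cytosolic calls in aged cells were 1 at 4 h with total counts and 1 at 24 h with DESeq2 or replicates 1 to 3 alone. Primed versus naive LPS in young cells gave 2 cytosolic and 4 mitochondrial calls without the term, and 2 mitochondrial with total counts and 1 with DESeq2. The priming difference was called for 0 genes with replicates 1 to 3 alone. Against young replicates 4 to 6 alone, age gave 1 cytosolic and 3 mitochondrial calls in controls and 1 of each in LPS, and young LPS gave 36 cytosolic calls. DESeq2 gave 1 mitochondrial age call in controls and in LPS.

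Leaving out single replicates gave 26 to 46 cytosolic calls in aged LPS, 0 to 1 at young β-glucan 4 h, 0 to 5 at young 24 h, 0 to 2 at aged 24 h, and 0 to 1 for the priming difference. Mitochondrial calls ran from 1 to 5 at young 4 h and 24 h, 0 to 3 at aged 4 h, 0 to 6 at aged 24 h, 0 to 1 in young primed versus naive LPS and 0 to 1 between ages in controls.

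Depth limited the lowest members, such as Rpl9-ps1, listed at 0 in every young library without LPS. The replicate numbers were not taken to pair the samples, since the labels give no shared source. Of 93 same-numbered pairs 2 correlated over 0.1 (median 0.02), and of 276 pairs with different numbers also 2 (median -0.01). The highest value was 0.12 in both kinds of pair, so this cutoff cannot show whether the samples were paired. In aged cells the medians were 0.04 and -0.02. There were 90 comparisons of a library with the replicates 1 to 3 of another group of its age. In 57 of them the same number, held by 1 of the 3 replicates, correlated best, a hint from the data and not the design. The main model does not use it. With the replicate block, cytosolic calls were 3 at young β-glucan 24 h, and mitochondrial calls were 4 at aged 4 h and 1 each in young primed versus naive LPS and between ages in controls and at β-glucan 4 h.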
